A study of Mus musculus with 16 samples.

Results

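The lipid-associated macrophage genes are a set of 9 genes, Trem2, Gpnmb, Spp1, Itgax, Mmp12, Atp6v0d2, Cd9, Lgals3 and Clec7a, that mark macrophages loaded with lipid. Probes were assigned to them through the RefSeq accession that the scanner files give for each probe, and the probe with the highest mean over all arrays stood for its gene. Of the 9 genes, 8 were matched, among 22911 genes named by a probe. No accession on the array matched Clec7a in the table used, and Clec7a was not analysed here. RNA of brown adipose tissue (BAT) and gonadal white adipose tissue (gWAT) of male mice on a C57BL/6NCrSlc background was hybridized to 16 one-colour Agilent arrays, 4 for each tissue and genotype. Every mouse was homozygous for a floxed allele of Pgam1, a gene for a glycolytic enzyme. The littermate controls (WT) were Adipoq-Cre−, and the Adipo-Pgam1 KO mice were Adipoq-Cre+, so that Cre was made under the promoter of adiponectin, in adipocytes and not in macrophages. The mice were 16 weeks old, except replicate 4 of either Adipo-Pgam1 KO group, which is given as 14 weeks, and were kept on normal chow.

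Macrophages of adipose tissue take up lipid that adipocytes release and break it down in lysosomes. In obesity and around dying adipocytes they gather in crown-like structures and turn on a common set of genes for lipid sensing, lysosomal function, adhesion and matrix breakdown. This state depends on TREM2, a receptor for lipids and lipoproteins on the surface of macrophages and microglia, which signals through the adaptor DAP12 (Tyrobp).

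Values are log2 signal intensities relative to the 75th percentile of the array, so that 0 is the level of the probe at that percentile. A spot is called well above background by the scanner software. At most 62.2% of probes passed on an array, no spot was saturated, and precision is limited by how many arrays there are. Pgam1 fell in BAT from 7.94 ± 0.11 (SD, n = 4) to 6.2 ± 0.17 (SD, n = 4), but in gWAT the arrays that the labels call Adipo-Pgam1 KO were higher, at 6.31 ± 0.25 (SD, n = 4), and WT was at 5.36 ± 0.29 (SD, n = 4). The groups did not overlap in either tissue (p = 0.0286 by a two-sided exact permutation test, which 4 arrays against 4 cannot go below). The 4 gWAT arrays with the KO label are called the labelled KO arrays from here on, and each direction in gWAT rests on that label. In gWAT, 3 WT arrays lay on a slide scanned on another day than the slide with the remaining WT array and all 4 labelled KO arrays. In BAT, 3 WT arrays lay on a slide of their own, scanned on the same day as the slide with the remaining WT array and all 4 Adipo-Pgam1 KO arrays. The labelled tissues carried their markers. Summed over 5 brown adipocyte markers, the log2 level was 11.17 to 11.26 in BAT of WT and 2.53 to 3.41 in gWAT of WT, where Ucp1 was not well above background on any array. In the labelled KO arrays this sum was higher, at 5.55 to 7.06, and Cidea, a lipid droplet protein of brown fat, rose by 3.41 (adjusted p = 0.00126 in limma) and Elovl3, a fatty acid elongase, by 4.35 (adjusted p = 0.0219 in limma).

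**Figure D1:**
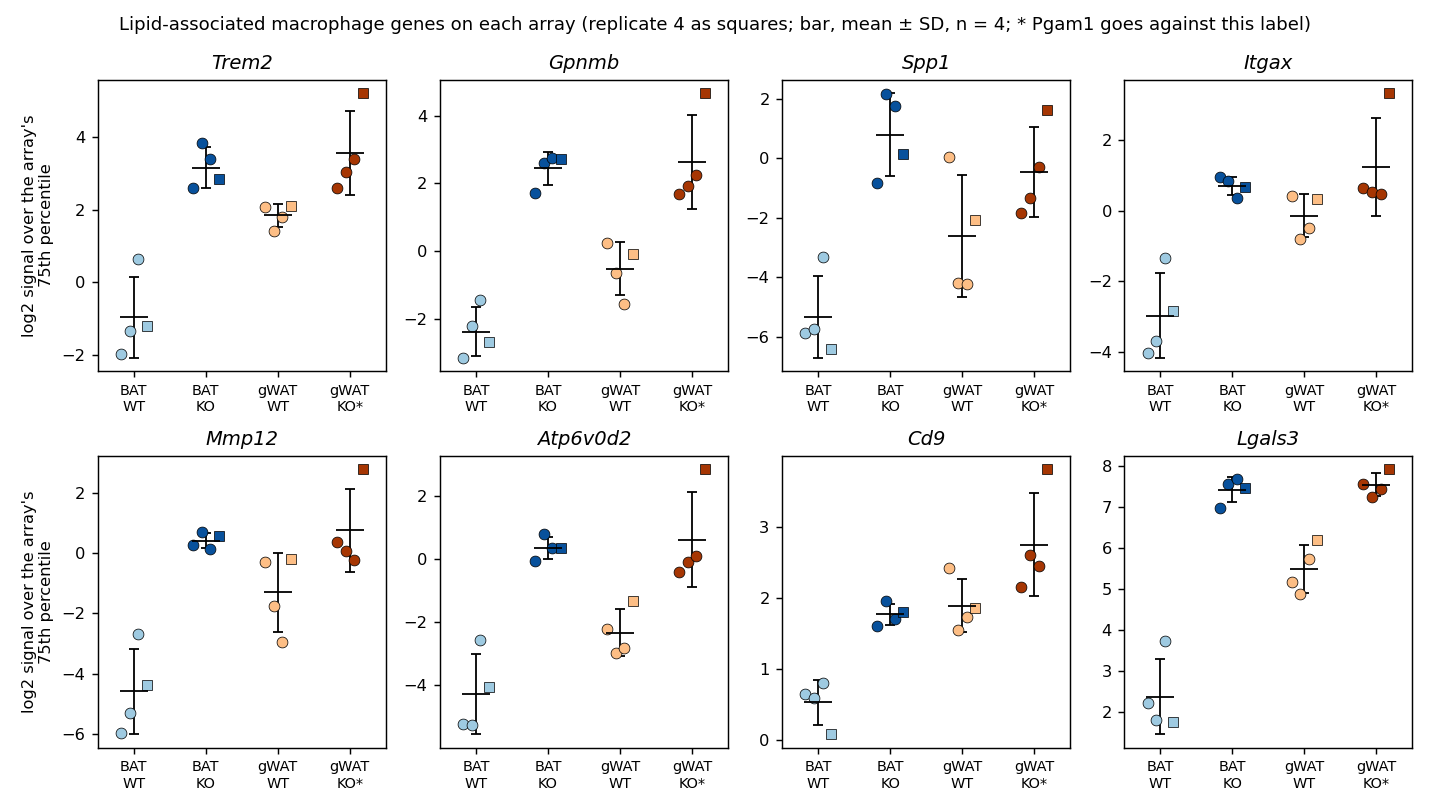
Log2 signal over the 75th percentile of the array (vertical axis, a scale of its own in each panel) for each of the 8 measured genes on each of the 16 arrays, by tissue and genotype, with the mean and SD of 4 arrays as bars and replicate 4 as squares. In BAT every Adipo-Pgam1 KO array lay above every WT array for all 8 genes, and in gWAT replicate 4 of the labelled KO arrays was the highest of its group for all 8.

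In BAT, all 8 measured genes rose in Adipo-Pgam1 KO mice, 7 of them by an estimated 12.8-fold or more and Cd9 by 2.36-fold. For Spp1, Mmp12, Itgax and Atp6v0d2 the size of the estimate rests on WT values near the background. Over all 14280 genes tested in this tissue, 27.5% passed the same test in that direction. The groups did not overlap for any of the 8 genes, against 25.1% of all genes with every Adipo-Pgam1 KO array above every WT array. The median log2 change of the 8 genes was 4.74, and that of all genes tested was -0.08. With another background correction (normexp) the median of the 8 genes was 3.0. Over the alternative settings the log2 change went as low as 2.65 for Mmp12 and 3.35 for Spp1. In whole tissue, more macrophages and more RNA per macrophage cannot be told apart.

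Among the surface receptors, Trem2 lay at -1.97, -1.35, 0.64 and -1.21 in BAT of WT and at 2.59, 3.83, 3.39 and 2.85 in Adipo-Pgam1 KO mice. Replicate 3 of WT stood above the other controls and below every Adipo-Pgam1 KO array. The log2 change of Trem2 was 4.14 (standard error 0.53, adjusted p = 0.000203 in limma), a 17.6-fold rise. Itgax, which encodes the integrin alpha chain CD11c, was at -4.03, -3.67, -1.34 and -2.84 in WT, where 2 of 4 arrays were well above background, and at 0.94, 0.83, 0.36 and 0.68 in Adipo-Pgam1 KO mice. The 4 Adipo-Pgam1 KO arrays were close together, and the spread lay in the controls. On the log2 scale it rose by 3.67 (standard error 0.52, adjusted p = 0.000344 in limma). Cd9, a tetraspanin that many cell types besides macrophages carry, was at 0.64, 0.60, 0.80 and 0.08 in WT and at 1.60, 1.95, 1.70 and 1.81 in Adipo-Pgam1 KO mice. It had the smallest log2 change of the 8 genes, 1.24 (standard error 0.16, adjusted p = 0.000244 in limma).

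Among the secreted proteins, Spp1, which encodes osteopontin, a ligand of integrins and of CD44, was at -5.88, -5.73, -3.32 and -6.42 in WT and at -0.84, 2.14, 1.75 and 0.14 in Adipo-Pgam1 KO mice. In WT it was well above background on 1 of 4 arrays, so that the size of its change rests on control values near the background. Its log2 change of 6.13 (standard error 0.82, adjusted p = 0.000266 in limma) was the largest of the 8 genes and had the largest standard error. Mmp12, the macrophage metalloelastase, which cleaves elastin, was at -5.97, -5.31, -2.69 and -4.38 in WT, with 1 of 4 arrays well above background, and at 0.28, 0.69, 0.12 and 0.57 in Adipo-Pgam1 KO mice. The Adipo-Pgam1 KO arrays of Mmp12 lay within 1 log2 unit of each other. On the log2 scale it rose by 5.0 (standard error 0.61, adjusted p = 0.000159 in limma). Lgals3, galectin-3, a lectin that binds beta-galactosides on the cell surface and on damaged lysosomes, was at 2.21, 1.79, 3.73 and 1.76 in WT and at 6.98, 7.56, 7.69 and 7.46 in Adipo-Pgam1 KO mice. It was well above background on every array, and on the log2 scale it rose by 5.05 (standard error 0.42, adjusted p = 2.48e-05 in limma), a 33.2-fold rise.

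Among the lysosomal proteins, Gpnmb, a transmembrane glycoprotein of lysosomes and melanosomes, was at -3.17, -2.23, -1.45 and -2.68 in WT and at 1.71, 2.60, 2.76 and 2.71 in Adipo-Pgam1 KO mice. Replicate 1 of the Adipo-Pgam1 KO mice stood below the other 3, which were nearly equal. The log2 change of Gpnmb was 4.83 (standard error 0.38, adjusted p = 2.07e-05 in limma), a 28.4-fold rise. Atp6v0d2, a subunit of the membrane sector of the proton pump that is found in macrophages and osteoclasts, was at -5.24, -5.28, -2.57 and -4.08 in WT and at -0.07, 0.79, 0.34 and 0.36 in Adipo-Pgam1 KO mice. In WT 2 of 4 arrays were well above background. On the log2 scale it rose by 4.65 (standard error 0.56, adjusted p = 0.000147 in limma).

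Replicate 3 of the BAT controls was the highest WT array for all 8 genes, and lay between 0.36 (Cd9) and 2.69 (Spp1) above the mean of the other WT arrays. Without it, the log2 changes were larger for all 8 genes, up to 6.81 for Spp1, and all 8 still passed the test. A fit with the slide as a fixed block sets the single WT array of the shared slide against the 4 Adipo-Pgam1 KO arrays, and there the changes lay between 1.69 (Cd9) and 7.21 (Spp1), and all 8 passed. The log2 sum of 6 adipocyte markers was 10.40 to 10.92 in BAT of WT and 8.09 to 8.58 in Adipo-Pgam1 KO mice, and its part in these changes was not tested.

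In gWAT, all 8 genes had higher means in the labelled KO arrays than in WT, and 4 of them, Gpnmb, Atp6v0d2, Lgals3 and Trem2, rose. Over all 14149 genes tested in gWAT, 9.99% passed in that direction. The groups did not overlap for 5 of the 8 genes, the 4 named and Itgax, against 13.3% of all genes. The median log2 change was 2.05 over the 8 genes and 0.05 over all genes tested.

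Gpnmb was at 0.23, -0.64, -1.57 and -0.10 in gWAT of WT and at 1.70, 1.92, 2.25 and 4.67 in the labelled KO arrays. It had the largest log2 change in gWAT, 3.15 (standard error 0.66, adjusted p = 0.0166 in limma), an 8.89-fold rise. Atp6v0d2 was at -2.23, -2.99, -2.82 and -1.34 in WT and at -0.41, -0.11, 0.09 and 2.84 in the labelled KO arrays. The 3 lower labelled arrays of each of these lysosomal genes lay close together, and replicate 4 stood apart above them. The log2 change of Atp6v0d2 was 2.95 (standard error 0.70, adjusted p = 0.0248 in limma). Lgals3 was at 5.16, 4.89, 5.73 and 6.18 in WT and at 7.57, 7.24, 7.45 and 7.92 in the labelled KO arrays. Its change of 2.05 had the smallest standard error of the 8 genes in gWAT, 0.28, and the smallest adjusted p, 0.00428 in limma. Trem2 was at 2.07, 1.43, 1.79 and 2.11 in WT and at 2.60, 3.05, 3.39 and 5.23 in the labelled KO arrays, and it rose by 1.72 (standard error 0.50, adjusted p = 0.0469 in limma).

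The other 4 genes did not pass the test in gWAT. Spp1 spread most, at 0.05, -4.19, -4.23 and -2.08 in WT, with 2 of 4 arrays well above background, and at -1.83, -1.33, -0.28 and 1.61 in the labelled KO arrays. Replicate 1 of WT exceeded 3 of the 4 labelled arrays for this gene. The log2 difference was 2.15 with a 95% interval from -0.25 to 4.55 (adjusted p = 0.184 in limma). Mmp12 was at -0.30, -1.76, -2.95 and -0.18 in WT and at 0.37, 0.07, -0.22 and 2.77 in the labelled KO arrays, a difference of 2.05 with an interval from 0.25 to 3.84 (adjusted p = 0.103 in limma). For Itgax the difference was 1.38, from -0.07 to 2.82 (adjusted p = 0.160 in limma). Its WT values of 0.40, -0.81, -0.50 and 0.34 lay just under the labelled values of 0.63, 0.52, 0.47 and 3.32. For Cd9 the values were 2.41, 1.55, 1.73 and 1.86 in WT and 2.15, 2.60, 2.44 and 3.81 in the labelled KO arrays, a difference of 0.86 from 0.06 to 1.66 (adjusted p = 0.121 in limma).

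Replicate 4 of the labelled KO arrays, the array given as 14 weeks of age, lay above the mean of the other 3 by 0.50 (Lgals3) to 2.98 (Atp6v0d2). Without it the changes were smaller for all 8 genes, from 0.51 (Cd9) to 2.47 (Gpnmb), and Trem2, Gpnmb, Atp6v0d2 and Lgals3 again passed. In gWAT the slide as a fixed block rests on 1 WT array and also stands for the day of scanning, and under it the differences lay between 0.89 (Cd9) and 2.73 (Gpnmb), and none of the 8 passed in limma, with 2 at an unadjusted p under 0.05. Over all genes, that block left 0.466% called higher. Of the 8 fits without 1 array, Gpnmb and Lgals3 passed in all, Atp6v0d2 in 5 and Trem2 in 2, those without replicate 1 or replicate 4 of the labelled KO arrays. Trem2 passed in 8 of the 16 other settings, and without 1 of the other arrays its adjusted p reached 0.112 in limma. The methods' t-test called Lgals3 only.

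**Figure D2:**
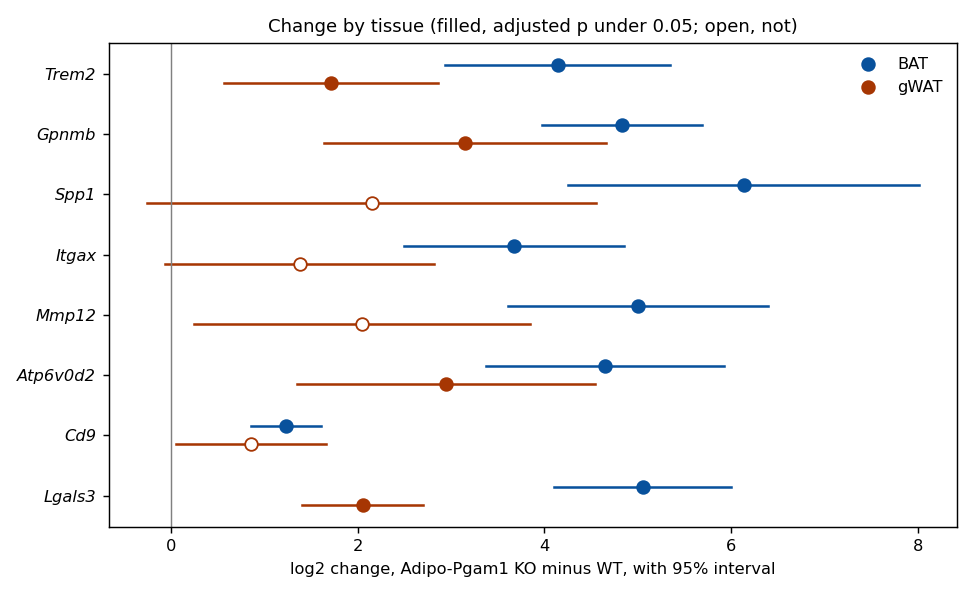
Log2 change between genotypes (horizontal axis) with its 95% interval from limma for the 8 genes, in BAT (blue) and gWAT (brown, direction by label). Filled points passed an adjusted p of 0.05 and open points did not, and all 8 BAT changes lay to the right of their gWAT counterparts.

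The change differed between the tissues for 5 of the 8 genes. For Lgals3 the change in gWAT was below that in BAT by a log2 difference of -3.0 (standard error 0.54, adjusted p = 0.000485, interaction in limma). The same difference was -2.42 for Trem2 (adjusted p = 0.0206), -3.98 for Spp1 (0.0357), -2.95 for Mmp12 (0.0362) and -2.30 for Itgax (0.0455). For Gpnmb it was -1.68 (adjusted p = 0.110), for Atp6v0d2 -1.70 (0.166) and for Cd9 -0.38 (0.474). Of the 14820 genes in this fit, 21% had a change in gWAT below that in BAT by the same test. The difference passed in every setting tried for Lgals3, and for Trem2 in all but scaling by Actb and Rplp0 and scaling by macrophage markers. Without replicate 4 of the labelled KO arrays, all 8 genes passed, and without replicate 1 or 2 of the BAT controls, for example, Trem2 and Lgals3 did.

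The levels also differed between the tissues in the controls. In WT, 7 of the 8 genes could be tested between the tissues, and all 7 were higher in gWAT than in BAT, against 29.3% of the 14304 genes tested. The log2 difference was 3.29 for Mmp12 (standard error 0.82), 3.12 for Lgals3 (0.47), 2.83 for Itgax (0.57), 2.82 for Trem2 (0.50), 1.95 for Atp6v0d2 (0.63), 1.86 for Gpnmb (0.46) and 1.36 for Cd9 (0.22), with adjusted p from 0.000443 to 0.0234 in limma. Spp1 was well above background on 1 BAT and 2 gWAT arrays of WT and was not tested. Blocked on the slide, which leaves 1 BAT array against 3 gWAT arrays, Trem2, Cd9 and Lgals3 still passed, and the other 4 did not. In the other genotype, the ranges of BAT and of the labelled KO arrays overlapped for 7 of the 8 genes, and for Cd9 the labelled KO arrays lay higher. Every gene thus had its lowest group mean in BAT of WT. BAT of Adipo-Pgam1 KO mice lay above all 4 gWAT arrays of WT for Trem2, Gpnmb, Mmp12, Atp6v0d2 and Lgals3, and overlapped with them for Spp1, Itgax and Cd9.

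General markers of macrophages also rose in BAT. Of 12 pan macrophage markers, 9 rose in BAT and none fell, against 34% of all genes that fell, with a median log2 change of 2.52. Adgre1, a surface receptor that marks mouse macrophages, rose by 2.84 (standard error 0.25), Cd68, a lysosomal glycoprotein, by 3.07 (0.35), Fcgr1, the high-affinity IgG receptor, by 3.79 (0.29) and Lyz2, lysozyme, by 2.91 (0.28). In gWAT 1 of the 12 rose, Cd68, by 1.48 (standard error 0.40, adjusted p = 0.0365 in limma), a share near the 9.99% of all genes that rose, none fell, against 7.85% of all genes, and the median was 0.27. Cd68 did not pass with quantile scaling (adjusted p = 0.0648 in limma) or scaling by Actb and Rplp0 (adjusted p = 0.0575 in limma), and no marker passed in limma with the slide as a fixed block (2 of 12 at an unadjusted p under 0.05). The gWAT difference of Adgre1 was 0.73 (standard error 0.40, adjusted p = 0.236 in limma). The log2 sum of the 12 markers was 5.21 to 5.65 in BAT of WT, 7.01 to 7.5 in BAT of Adipo-Pgam1 KO mice, 6.56 to 7.07 in gWAT of WT and 6.59 to 7.90 in the labelled KO arrays, where replicate 4 was the highest. All 12 were well above background on every array. Of the 6 resident macrophage markers tested in BAT, 5 rose, among them Mrc1, the mannose receptor, by 3.15 (0.21), Folr2, the folate receptor beta, by 3.07 (0.29), F13a1 by 2.36 (0.33) and Lyve1 by 2.26 (0.35). None of 7 passed in gWAT in limma, none had an unadjusted p under 0.05, and the value of Lyve1 was -0.21 (0.32). Of 6 monocyte markers, 3 rose in BAT, Plac8 by 3.68, Ccr2 by 2.83 and Cx3cr1 by 1.82, and 1 fell. None passed in gWAT in limma, and 1 of 6 had an unadjusted p under 0.05, Ccr2, with a value of -0.93. All 5 mast cell markers also rose in BAT, Cpa3, a mast cell protease, by 3.96. None passed in gWAT in limma. There 3 of 5 had an unadjusted p under 0.05, and their values were below 0, at -1.22 for Cpa3, -1.18 for Mcpt4 and -0.95 for Cma1. Itgax is carried by dendritic cells as well, and of 5 dendritic cell markers tested in BAT 4 rose, Cd209a by 3.33, Flt3 by 2.43, Ccr7 by 2.02 and Clec9a, not well above background on any WT array, at least 8.17-fold, while 1, Zbtb46, fell (none with spike-in scaling). Such a bound is taken against the dimmest signal well above background on each array, or the probe's own signal where that was higher. The log2 sum of the 6 dendritic cell markers was -1.22 to -0.41 in BAT of WT and 1.16 to 1.57 in Adipo-Pgam1 KO mice, and Xcr1 was not well above background on any array. In gWAT 1 of 5 rose, Zbtb46, and the sums overlapped. Of 6 fibroblast markers, 5 rose in BAT, Col1a1 by 1.88 and Pdgfra by 1.59 (3 of 6 with scaling by Actb and Rplp0), while in gWAT none rose and Dpt fell (none with spike-in scaling). The part of these other cell types in the changes of the 8 genes was not tested.

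Relative to the mean of the 12 pan macrophage markers on the same array, a scaling chosen after seeing the data, 7 of the 8 genes were still higher in BAT of Adipo-Pgam1 KO mice, against 3.4% of all genes. The excess over the markers was 4.12 for Spp1 (standard error 0.65), 3.04 for Lgals3 (0.34), 2.99 for Mmp12 (0.47), 2.82 for Gpnmb (0.31), 2.63 for Atp6v0d2 (0.44), 2.13 for Trem2 (0.40) and 1.66 for Itgax (0.40), with adjusted p from 1.45e-06 to 0.00148 in limma. Cd9 rose less than the markers, by -0.77 relative to them (standard error 0.20, adjusted p = 0.00269 in limma). The size of the excess in BAT depends on the background correction. The median log2 changes there were 4.74 for the 8 genes and 2.52 for the markers. With normexp they were 3.0 and 2.46, and the excess of single genes was not tested with normexp. In gWAT, Gpnmb (2.82, standard error 0.46), Atp6v0d2 (2.61, 0.46), Lgals3 (1.72, 0.36) and Trem2 (1.38, 0.37) were higher than the markers in the labelled KO arrays, with adjusted p from 0.00110 to 0.0360 in limma, against 0.883% of all genes. The values of the other 4 in gWAT lay between 0.52 and 1.82 and did not pass. The mean of the markers itself was 1.04 ± 0.22 (SD, n = 4) and 3.05 ± 0.16 (SD, n = 4) in BAT and 2.46 ± 0.16 (SD, n = 4) and 2.79 ± 0.55 (SD, n = 4) in gWAT, WT first. Replicate 4 of the labelled KO arrays had the highest marker mean of its group, 3.5, and for all genes but Lgals3 it was also the highest of its group relative to the markers.

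**Figure D3:**
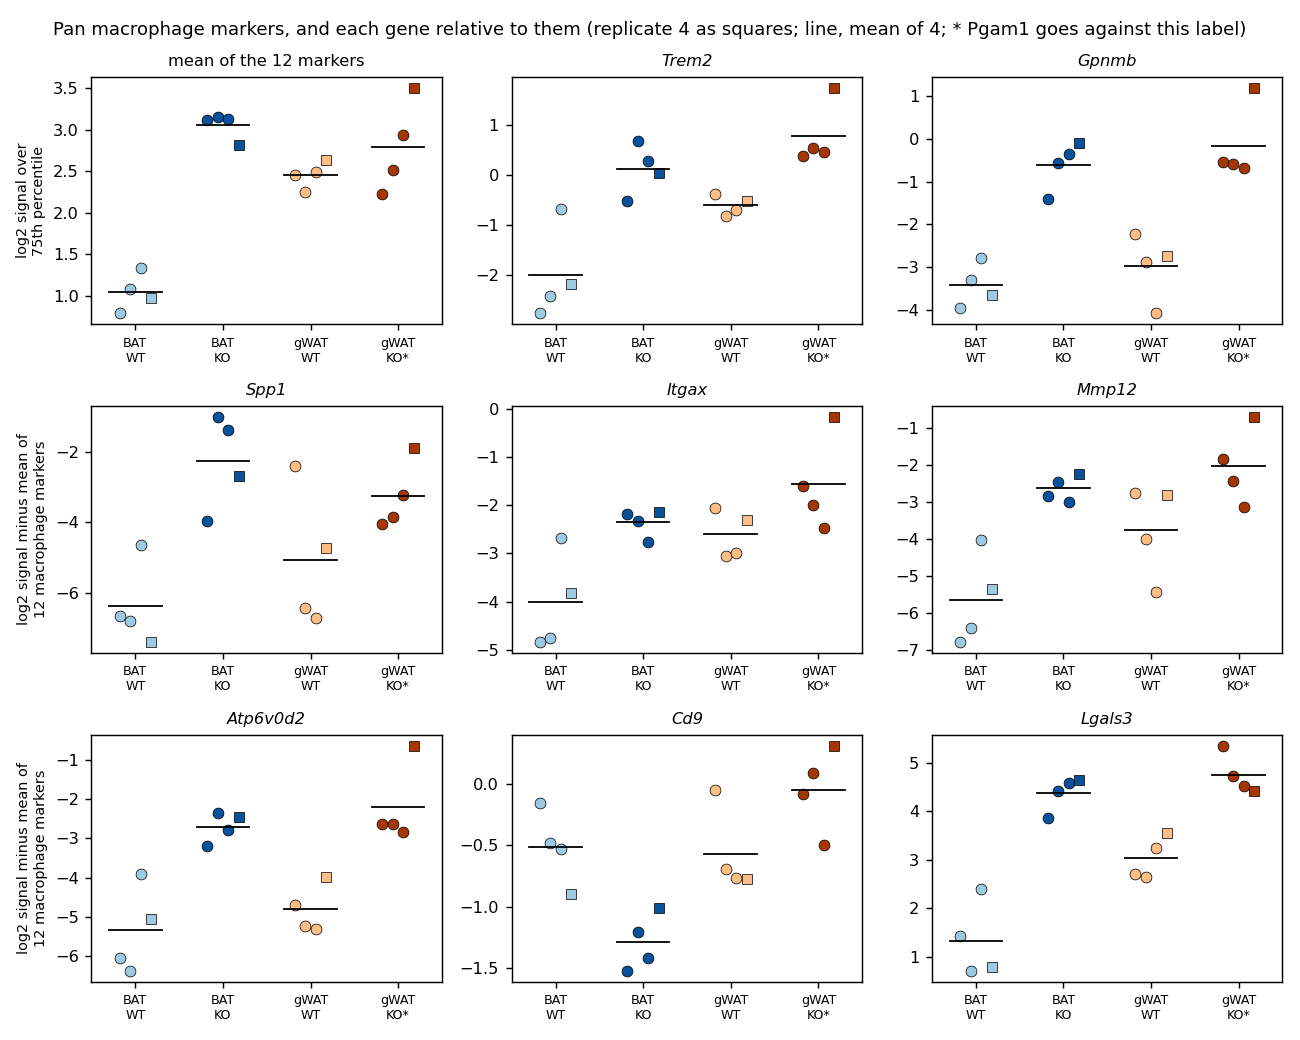
The mean log2 signal of 12 pan macrophage markers (first panel) and the log2 signal of each of the 8 genes minus that mean (other panels) on each array, by group, with replicate 4 as squares and the mean of 4 as a line. Relative to the markers Gpnmb was higher in both tissues, by 2.82 in each, while Cd9 was lower in BAT of Adipo-Pgam1 KO mice.

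Most partners of these genes also rose in BAT. Of 17 tested partners, ligands and receptors, 15 rose in BAT, 1 fell and the median log2 change was 1.76. With scaling by Actb and Rplp0 12 rose, 3 fell and the median was 1.17. In gWAT none of the 17 passed in limma in either direction, 4 had an unadjusted p under 0.05, and the median was 0.21. Tyrobp, the signalling adaptor of TREM2, rose in BAT by 2.77 (standard error 0.28) and its relative Hcst by 2.90 (0.13). The kinase Syk, which acts below Tyrobp, rose by 2.69 (0.19). Cd44, a receptor of osteopontin, rose by 3.46 (0.28), and Itgb2, the beta chain that pairs with the Itgax product, by 2.57 (0.23). Clec4n, the C-type lectin Dectin-2, rose by 3.36 (0.29). The partner that fell in the main fit was Cd81, a tetraspanin like Cd9, with a change of -0.38 (0.12), which turned to 0.16 with spike-in scaling. Apoe, a ligand of TREM2, had a value of -0.21 (0.19, adjusted p = 0.343 in limma). In gWAT the values of Tyrobp and Hcst were 0.99 (0.36, adjusted p = 0.0924 in limma) and 0.21 (0.18, adjusted p = 0.453 in limma).

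Genes of lysosomes and lipid handling moved both ways in BAT, and 9 of 19 rose in gWAT. Of 19 tested, 11 rose and 5 fell in BAT (median 0.86), and in gWAT 1 fell (median 0.79). In BAT, Nceh1, a cholesteryl ester hydrolase, rose by 3.41 (standard error 0.26), Ctss, cathepsin S, by 3.28 (0.37) and Abcg1, a cholesterol exporter, by 3.21 (0.17). Those that fell in BAT were Acp5, Ctsz, Lgals1, Ctsb and Npc2, with changes from -1.63 to -0.54, and with spike-in scaling 3 fell. In gWAT, Fabp5, a fatty acid binding protein, rose by 1.66 (0.29), Lipa, the lysosomal acid lipase, by 1.45 (0.21) and Abcg1 by 1.37 (0.40). Lipa also rose in BAT, by 0.63 (0.17), but had a value of 0.04 (adjusted p = 0.857 in limma) with scaling by Actb and Rplp0. Acp5, tartrate-resistant acid phosphatase, fell in both tissues, by 0.89 (0.21) in gWAT, where it did not pass with median scaling (adjusted p = 0.104 in limma) or spike-in scaling (adjusted p = 0.0619 in limma). Without replicate 4 of the labelled KO arrays, 7 of the 19 rose and 1 fell, and 6 rose with quantile or median scaling. With the slide as a fixed block none of the 19 passed in gWAT in limma, 6 had an unadjusted p under 0.05, and the median was 0.56.

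The other subunits of the proton pump moved by much less than Atp6v0d2 in BAT, in a direction that depended on the scaling. Of 13 tested, 2 rose in BAT, Tcirg1 by 1.1 (standard error 0.16) and Atp6v1h by 0.71 (0.11), and 6 fell. Their median was -0.17, and that of all genes tested was -0.08. The median of all genes was higher with spike-in scaling and lower with scaling by Actb and Rplp0, and the subunits moved alike. With spike-in scaling 7 of the 13 rose, none fell and the median was 0.37. With scaling by Actb and Rplp0 1 rose, 11 fell and the median was -0.76. With the slide as a fixed block 2 rose and 2 fell. Atp6v1h had a value of 0.12 (adjusted p = 0.308 in limma) with scaling by Actb and Rplp0. Atp6v0d2 rose by 4.65, and Atp6v0d1, its ubiquitous counterpart, had a change of -0.43 (0.10), or 0.11 with spike-in scaling. In gWAT 7 of the 13 rose, none fell and all 13 values were above 0, with a median of 0.64. Atp6v1a, the catalytic subunit, rose there by 1.41 (0.19) and Atp6v0c by 0.94 (0.16). Without replicate 4 of the labelled KO arrays 9 of the 13 rose, and with the slide as a fixed block none passed in limma, 4 had an unadjusted p under 0.05 and 12 of 13 values were above 0.

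**Figure D4:**
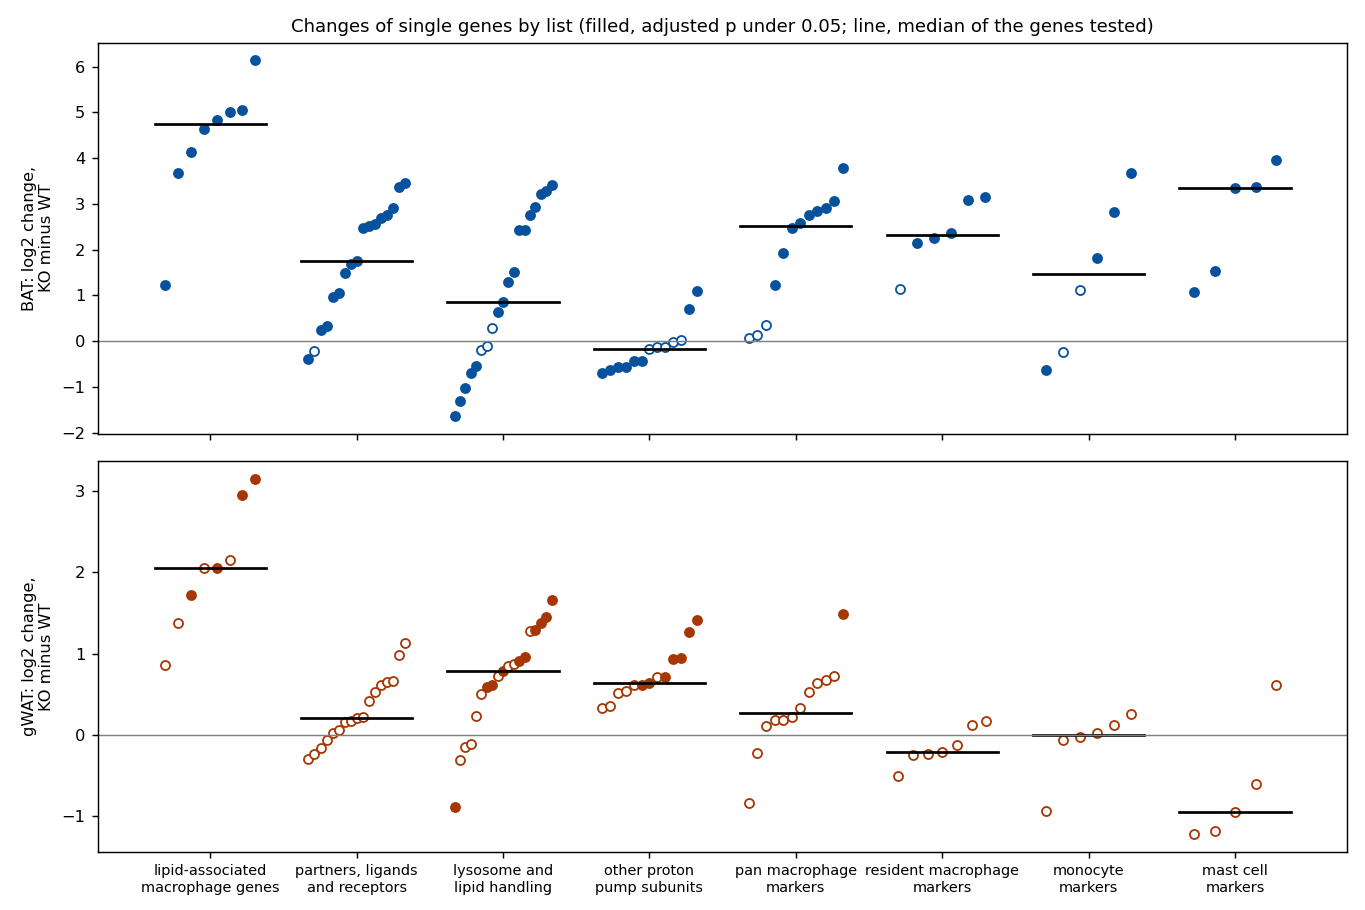
Log2 change of each tested gene (vertical axis) in BAT (upper panel) and gWAT (lower panel, direction by label) by gene list, with filled points for an adjusted p under 0.05 and a line at the median of the list. The medians of the lipid-associated macrophage genes were 4.74 in BAT and 2.05 in gWAT, those of the pan macrophage markers 2.52 and 0.27.

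Of 8 transcription factors that act on such genes, 4 rose and 4 fell in BAT, and with spike-in scaling 4 rose and none fell. Tfec, the member of the MiT/TFE family found in macrophages, was at least 2.29-fold higher (adjusted p = 5.17e-05 in limma), and Spi1, which encodes PU.1, at least 2.19-fold (adjusted p = 0.000799 in limma), as neither was well above background on any BAT array of WT. Mitf, with a change of 0.44 (0.12), and Tfe3, with 0.22 (0.08), had the opposite sign with scaling by Actb and Rplp0, at -0.15 and -0.37. Tfeb, a regulator of lysosomal genes, had a change of -0.88 (0.11), and the other that fell were Nr1h3, Cebpb and Pparg. None of 7 tested in gWAT passed in limma, and 2 had an unadjusted p under 0.05. These were Spi1, with a value of 0.77 (0.27, adjusted p = 0.0808 in limma), and Tfeb, with -0.38 (0.15, adjusted p = 0.107 in limma).

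Because the 8 genes rose together in BAT, the 250 bases upstream of their RefSeq start sites (GRCm38.p6) were searched on both strands for 4 short motifs. These were CACGTG and TCATGTG, bound by MiT/TFE factors, GAGGAAGT, bound by PU.1, and TGAGTCA, bound by AP-1. No 2 of these letter strings coincide. The promoter table held 9 promoters for 7 of the 8 genes. CACGTG was in 0 of the 9, TCATGTG in 1, GAGGAAGT in 2 and TGAGTCA in 2, against 6.02%, 3.25%, 2.44% and 4.46% of 32851 promoters of the same length. Shown are 3 of the 4 promoters with a match, the first listed for each of the 3 genes, 5′ to 3′ on the gene's strand with the motif in capitals. They lie at chr5:104434861-104435110, chr7:128129300-128129549 and chr9:7344147-7344396, all on the plus strand.
Spp1: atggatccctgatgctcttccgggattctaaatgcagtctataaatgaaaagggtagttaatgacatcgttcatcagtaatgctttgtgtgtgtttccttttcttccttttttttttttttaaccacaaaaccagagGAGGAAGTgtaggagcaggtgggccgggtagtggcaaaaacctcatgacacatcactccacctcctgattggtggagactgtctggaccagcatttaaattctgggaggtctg
Itgax: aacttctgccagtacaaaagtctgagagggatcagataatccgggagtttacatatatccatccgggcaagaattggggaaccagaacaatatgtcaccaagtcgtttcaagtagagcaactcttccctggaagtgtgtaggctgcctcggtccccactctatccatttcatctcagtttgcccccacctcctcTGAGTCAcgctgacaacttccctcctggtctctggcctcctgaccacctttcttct
Mmp12: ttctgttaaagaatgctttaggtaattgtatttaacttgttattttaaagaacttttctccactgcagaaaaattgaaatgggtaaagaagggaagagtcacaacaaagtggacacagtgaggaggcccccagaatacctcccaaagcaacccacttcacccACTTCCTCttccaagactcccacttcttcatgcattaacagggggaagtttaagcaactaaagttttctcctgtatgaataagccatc
In Spp1 the capitals mark GAGGAAGT, 113 to 106 bases before the start. In Itgax they mark TGAGTCA, 56 to 50 bases before it, and in Mmp12 they mark GAGGAAGT on the opposite strand, 88 to 81 bases before it. Another promoter of Mmp12 held TCATGTG and TGAGTCA. A match describes the letters and is not a measured binding site.

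The mean pattern of the 8 genes over the 16 arrays was compared with the pattern of every gene. For each gene, values were centred on their own mean, and the root mean square difference from the mean centred profile of the 8 genes was taken. The SD of that profile over the arrays was 2.03 log2 units. A member is part of that mean, so each was also set against the mean of the other 7. By that measure Trem2 was the nearest of all 14795 genes, at 0.36, and Atp6v0d2, Itgax, Gpnmb, Mmp12 and Lgals3 ranked between 5 and 19. Spp1 (1.25, rank 575) and Cd9 (1.46, rank 566) were farther from the other members than many genes outside the set. The 10 nearest other genes were Il7r (0.43), the alpha chain of the interleukin-7 receptor, Clec4d (0.55), Dcstamp (0.63), which acts in the fusion of osteoclasts and giant cells, Adam8 (0.63), Cd200r1 (0.63), Lat2 (0.64), Ctss (0.64), Cd300c2 (0.68), Slc37a2 (0.68) and Myo1f (0.68). All 10 rose in BAT, a direction set by choosing genes near a profile that rises there. The brightest probes of Dcstamp and Cd200r1 were not well above background on any BAT array of WT. Dcstamp was at least 3.09-fold and Cd200r1 at least 5.14-fold higher, and the others had log2 changes between 2.91 and 4.75. Of 5 osteoclast and giant cell markers tested in BAT, Dcstamp alone rose, 1 fell (none with spike-in scaling) and the median was -0.12. In gWAT Clec4d (2.17, adjusted p = 0.0275 in limma) and Slc37a2 (2.13, adjusted p = 0.0272 in limma) rose. The nearness of these genes is a description over arrays that fall into 4 groups.

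Other probes of the same genes were less bright. The second probe of Lgals3 gave a log2 difference of 4.88 in BAT and of 2.42 in gWAT, close to the 5.05 and 2.05 of the brighter probe. Both other probes of Mmp12 were not well above background on any BAT array of WT and were on all 4 of Adipo-Pgam1 KO mice, at least 4.34-fold and at least 3.11-fold higher. The second probe of Atp6v0d2 was likewise detected on all 4 Adipo-Pgam1 KO arrays and on no WT array, at least 2.83-fold higher in BAT and at least 4.49-fold higher in the labelled KO arrays. In gWAT the same probes of Mmp12 gave log2 differences of 2.81 and 2.99, larger than the 2.05 of the brightest, with 3 and 2 of 4 WT arrays well above background. With the mean of all probes the difference of Mmp12 in gWAT was 2.62 (adjusted p = 0.0508 in limma), and with the replicate number as a block it passed (adjusted p = 0.0333 in limma). A second probe of Itgax was well above background on none of the 8 BAT arrays and on 1 of the gWAT arrays.

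**Figure D5:**
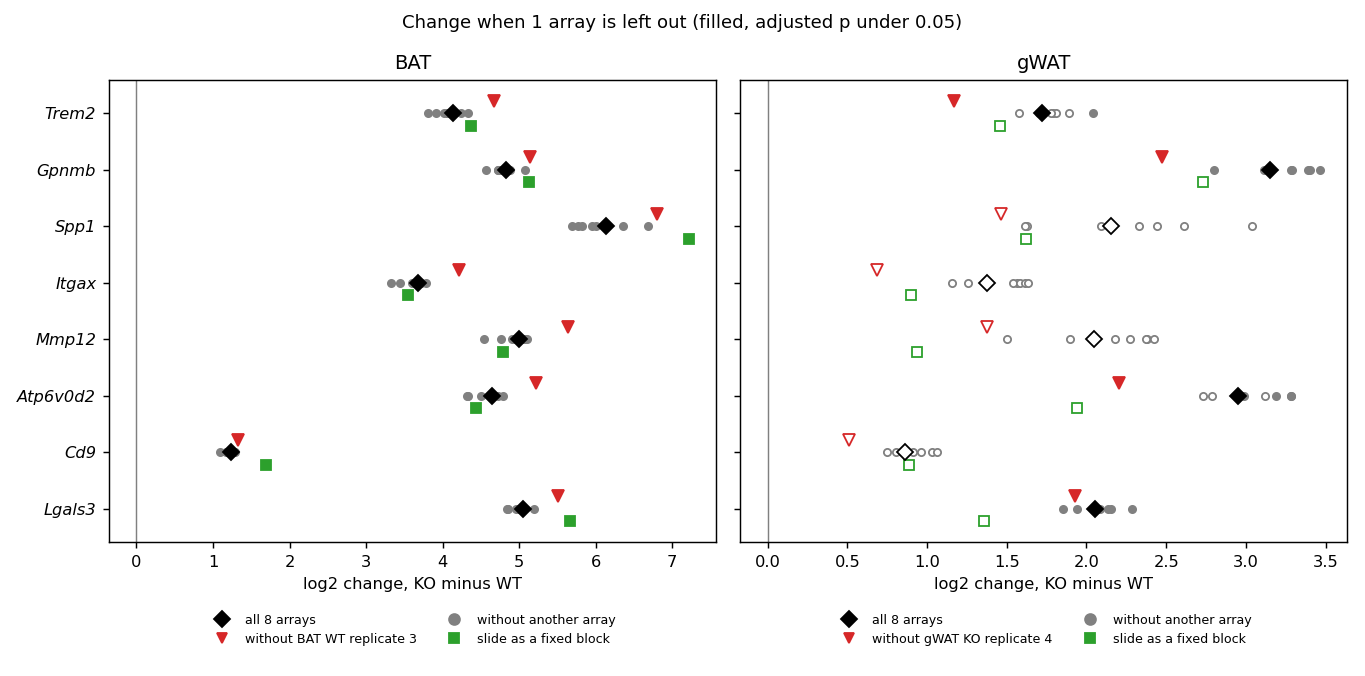
Log2 change of each gene (horizontal axis) in BAT (left) and gWAT (right, direction by label) with all 8 arrays (diamonds), without each array in turn (circles, with a triangle for the array that stood apart) and with the slide as a fixed block (squares). Filled symbols passed an adjusted p of 0.05: all did in BAT, and in gWAT Gpnmb and Lgals3 did whichever array was left out.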

How the data were processed

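RNA of BAT and gWAT (RNeasy Lipid Tissue kit) was labelled and hybridized to Agilent SurePrint G3 Mouse arrays. The labels and the methods give different amounts of RNA per array. The authors deposited scanner output, in which the processed signal intensity is background-corrected by Agilent Feature Extraction 10.7.1.1 (per the file headers), and a table of normalized signal, which equals the intensity over the array's 75th percentile to an SD of at most 0.00135 on the log2 scale. Here, irregular spots were left out, spots of a probe were averaged, and the log2 intensity minus that of the array's 75th percentile was used. Of 35886 probes with a RefSeq accession, 91.9% were named through a RefSeq gene table (GRCm38.p6). A gene was tested where 1 of the groups compared had its brightest probe well above background on each of 4 arrays. Genotypes were compared within each tissue (8 arrays), and tissues in WT (8 arrays), with limma 3.58.1 in R 4.3.3 (lmFit, eBayes). The interaction, the change in gWAT minus the change in BAT, was fitted over 16 arrays. P-values were adjusted by the Benjamini-Hochberg method over all genes tested, with a threshold of 0.05. The fits were tested on simulated data.

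All 8 measured genes are named. Of the other lists described, counts or sums are given. Genes in them were named by place in the list, size of change or role, after their values were seen. Lists of neutrophil, T cell, B cell, endothelial, mesothelial, skeletal muscle and epididymis markers were also drawn up and are not described. The members and gene lists were chosen with earlier results of these data known. Nothing says whether BAT and gWAT arrays of the same number share a mouse, and p-values measure the spread between the arrays. Alternatives were other scalings, background correction, filters, probe rules, variance models, slide and replicate blocks and leaving out each array.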

Additional observations from a re-analysis of the deposited data

Results flagged for a closer look

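On the scale of log2 signal over the 75th percentile, 3 of the 32 sets of 4 arrays, 1 for each gene and group, held an array far from the others, and chance gives about 1 in 20. Gpnmb in BAT of Adipo-Pgam1 KO mice was lowest in replicate 1, at 1.71. In gWAT, Itgax in the labelled KO arrays was highest in replicate 4, at 3.32. Atp6v0d2 was highest in the same array, at 2.84.

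The change between genotypes differed between the tissues by a test of the interaction in limma for 5 genes. The change in gWAT minus the change in BAT was -2.42 for Trem2, -3.98 for Spp1, -2.30 for Itgax, -2.95 for Mmp12 and -3.0 for Lgals3. The direction in gWAT is that of the labels. Pgam1 was higher in the labelled KO arrays of gWAT, and so was the log2 sum of 5 brown adipocyte markers, at 5.55 to 7.06 against 2.53 to 3.41 in WT.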

How the results depend on the processing

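In BAT, all 8 genes rose under each alternative that tested them, except that scaling by macrophage markers turned Cd9 to -0.77, and requiring detection on every array compared left 4 genes to test, all past the threshold. Leaving out any array kept 8. In gWAT, 4 genes passed, and the count was 2 with no filter on dim probes, 1 with the methods' t-test, 0 with the slide as a fixed block in limma and 2 to 4 without 1 array. For the difference of the changes between tissues, 5 genes passed, and the count was 2 with spike-in scaling, normexp, detection on every array, the slide as a random block and scaling by macrophage markers, 1 with scaling by Actb and Rplp0, 7 without both 14-week arrays, 8 without BAT WT replicate 3 and labelled gWAT replicate 4 together, and 2 to 8 without 1 array. Here Cd9 turned to 0.16 with scaling by Actb and Rplp0 and to 1.30 by macrophage markers. Between the tissues in WT, 7 genes passed, 4 with detection on every array, 3 with the slide as a fixed block, 4 with scaling by macrophage markers (Cd9 at -0.054) and 6 to 7 without 1 array. Settings with macrophage markers or without 2 arrays were chosen after seeing the data, and the cause of these changes was not tested. In BAT the median of all genes moved from -0.08 to 0.46 with spike-in scaling and to -0.67 with Actb and Rplp0.

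As a replicate block, the replicate number left 8 genes in BAT, 4 in gWAT and 7 between tissues in WT. With each number within a genotype as the block, 2 passed for the difference of the changes. The labels tie no 2 arrays to 1 mouse. Deviations from the group means of same-numbered arrays of both genotypes, which cannot share a mouse, correlated at -0.01 to 0.17 in BAT and -0.12 to 0.51 in gWAT. Those of same-numbered BAT and gWAT arrays correlated at -0.04 to 0.17 in WT and -0.12 to 0.25 in the arrays with the KO label. Whether these share a mouse is not given, and replicate 4 of both tissues with the KO label is given as 14 weeks. The numbers were not taken as pairs, and the main fits across tissues treated the arrays as independent. Array signal limits Spp1, Mmp12, Itgax and Atp6v0d2 in BAT of WT, where 1 or 2 of 4 arrays were well above background.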
